A study of Schizosaccharomyces pombe
Saccharomyces cerevisiae with 24 samples.

Results

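Labeled and total RNA of yeast were compared at 20 min in galactose in 4 of the 24 libraries of the study, the 2 libraries of labeled RNA and the 2 libraries of total RNA from cells given 4-thiouracil (4sU). The libraries were chosen by their labels, without regard to any measured value. All came from the diploid W303 strain of Saccharomyces cerevisiae, grown in YEP medium with raffinose. Galactose was added, and 20 min later 4sU for a pulse of 6 min. Labeled RNA was RNA with incorporated 4sU that had been tagged with biotin and bound to streptavidin beads, and total RNA was the same RNA before that step, so that it also held the new RNA. Every group shared a spike-in of 4sU-labeled S. pombe cells, depletion of rRNA and a directional library. Libraries of labeled and total RNA at 60 min with 4sU, and at 20 min without 4sU, were the groups set beside them, with 2 biological replicates in each. The diploid state of the strain was not checked here against marker genes, because the gene table used here pairs no S. cerevisiae identifier with a symbol.

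Cells take up 4sU and build it into RNA in place of uracil, so that a short pulse marks the transcripts made during it. A transcript that is made and degraded fast is renewed within minutes and is rich in the labeled fraction, while a transcript that lasts for many generations is mostly old and is poor in it. Ribosomal, transfer and small nucleolar RNAs and the RNAs of ribonucleoprotein particles are known as long-lived, and mRNAs as shorter lived. No sequence or length of the features was used here.

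The labeled libraries held 38373886 counts in replicate 1 and 9330094 in replicate 2, and the total libraries held 5897625 and 4781419. The deposited S. pombe scale does not compare fractions, since the pull-down enriches labeled S. pombe RNA too. Each library was therefore scaled by TMM, a scale that assumes that most features do not differ, and a log2 ratio of labeled over total RNA is relative to the other features and not a share of molecules. Features counted at least once in 50% or more of the 24 libraries, 6069 of 7127, entered edgeR's quasi-likelihood test, and those with an adjusted p under 0.05 are called higher or lower. Fewer cells and less RNA per cell cannot be told apart in such libraries, and p-values rest on 2 samples in each group. One library of the background groups stood apart, that of labeled RNA without 4sU in replicate 1, and it enters only the comparison with cells without 4sU.

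The makeup of the fractions differed most in what was not mRNA. Nuclear reading frames took 92.0% and 90.0% of the counts in labeled RNA, against 38.8% and 39.4% in total RNA. Transcripts of the mitochondrial genome took 3.21% and 4.28% in labeled RNA, against 38.8% and 43.4% in total RNA. Most of these counts were those of the features Q0158 and Q0020. Small nucleolar RNAs (snoRNAs), which guide the modification and cleavage of rRNA, took 0.511% and 0.813% in labeled RNA, against 8.24% and 7.14% in total RNA. In each of these classes the libraries of the fractions did not overlap, and both replicates had the same order. Spliceosomal RNAs (snRNAs) held 0.428% and 0.516% of the counts in labeled RNA, against 4.48% and 3.35% in total RNA. The rRNA features and spacers were the other way round, with 3.25% and 3.63% in labeled RNA, against 2.01% and 1.64% in total RNA.

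**Figure D1:**
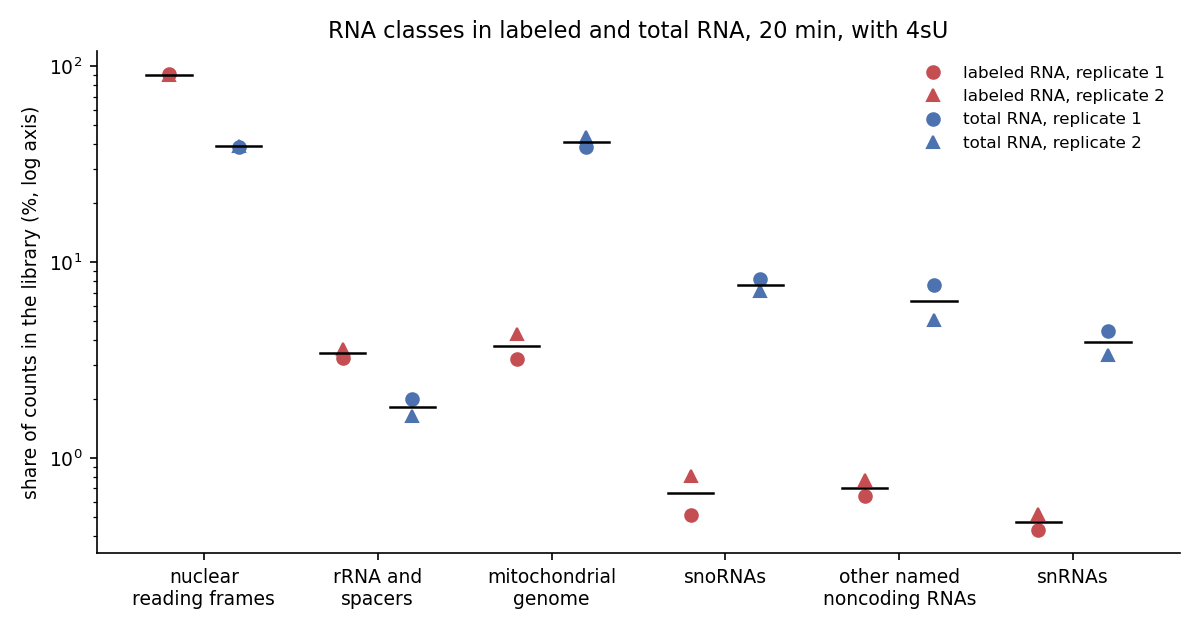
Share of the counts of each library (percent, log axis) held by 6 classes of RNA, with labeled RNA left of total RNA, a point for each replicate and a bar at the mean of 2. Nuclear reading frames lie at 92.0% and 90.0% in labeled RNA and at 38.8% and 39.4% in total RNA, and mitochondrial, snoRNA, snRNA and other noncoding shares lie lower in labeled RNA in both replicates.

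Relative to the other features, 1854 of the 6069 features were higher in labeled RNA (30.5%) and 1637 were lower (27.0%), and all 3491 had the same sign in both replicates. A change of at least 2-fold was reached by 1186 of those higher and 715 of those lower. The median log2 ratio was 0.07, and the middle 50% of features lay between -0.62 and 0.89. Over the 3983 features with a mean of at least 20 CPM (counts per 1000000 counts of the TMM-scaled library), the correlation of the log2 ratios of both replicates was 0.945 (Pearson) and 0.939 (Spearman), as a description across features, and their difference had an SD of 0.39. With 3491 features called and 2578 not, the assumption of TMM that most features do not differ was not met by these calls. The split of the calls depended on the scale. Of the calls, 53.1% were higher in labeled RNA with TMM, 71.6% with library sizes from nuclear reading frames (2547 higher, 1008 lower) and 97.1% with library sizes from all features (5074 higher, 151 lower). The median ratio of all features moved with them, by 0.34 and 1.56 on the log2 scale, so that the values of classes are given below also less the median of all features. With library sizes from all features, ratios between -1.56 and 0 are thus mostly turned to above 0.

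Nuclear reading frames, mostly genes of mRNAs, made up 5883 of the tested features. Of them 1852 were higher and 1550 lower in labeled RNA, with a median log2 ratio of 0.10 and a span from -1.49 to 2.13 between the 5% and 95% quantiles. No class of RNA outside the nuclear reading frames held a feature that was higher, apart from 2 of the other noncoding RNAs. Mitochondrial transcripts, snoRNAs, snRNAs and rRNA features each had a median below that of all features, and so did the tRNA genes. With library sizes from all features the medians of snRNAs, box C/D snoRNAs, other noncoding RNAs and tRNA genes were above 0 themselves, yet below that of all features. Without 4sU the class medians, less that of all features, were above 0 in replicate 1 and below it in replicate 2. They were 0.54 and -1.47 for mitochondrial transcripts, 0.40 and -1.32 for snoRNAs and 0.65 and -1.57 for snRNAs. For tRNA genes they were 0.37 and -1.09, and for rRNA features 0.02 and -0.18. A lower class median was thus also seen without 4sU, in replicate 2 alone.

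**Figure D2:**
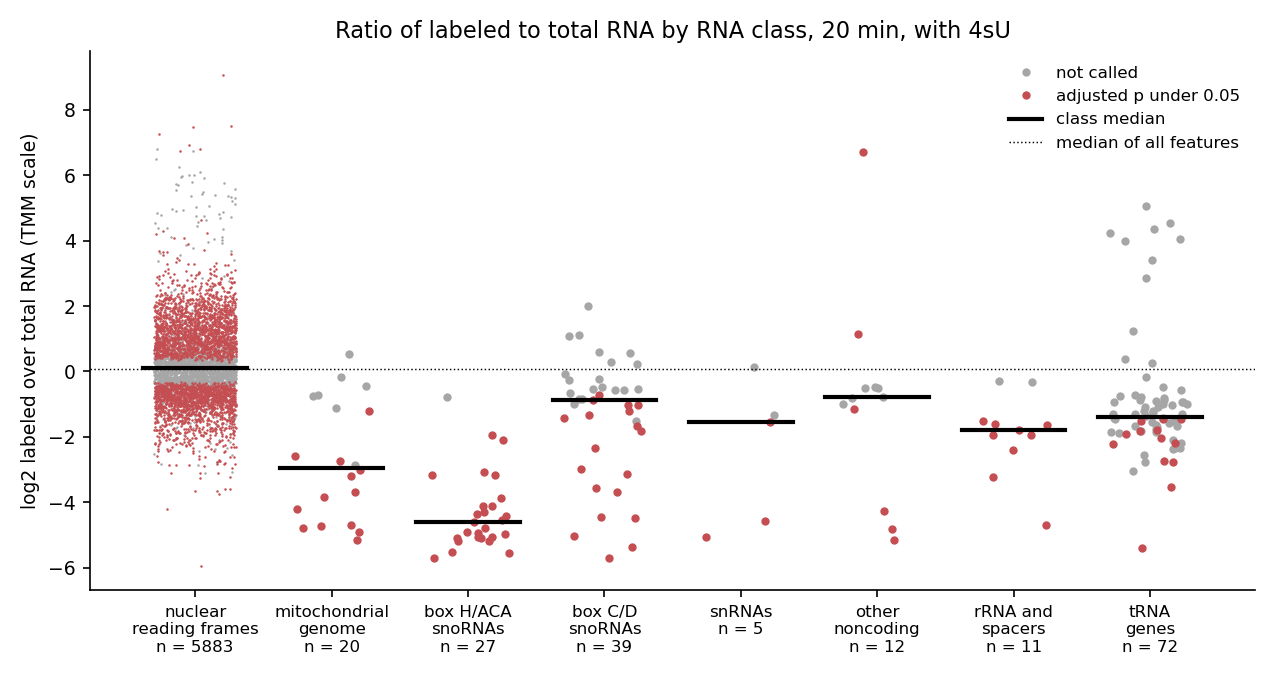
Log2 ratio of labeled over total RNA (TMM scale) of each tested feature by class of RNA, with called features in red, others in gray, a bar at each class median and a dotted line at the median of all features. The medians are 0.10 for nuclear reading frames, -2.94 for mitochondrial transcripts, -4.61 for box H/ACA snoRNAs and -0.88 for box C/D snoRNAs.

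The 2 families of small nucleolar RNAs had unequal medians over all tested members, and closer ones among members with more counts. Box H/ACA snoRNAs guide the change of uridine to pseudouridine in rRNA, and 26 of the 27 tested were lower in labeled RNA and 0 were higher, with a median log2 ratio of -4.61 (-4.68 less the median of all features). The exception, snR10, had 6 and 7 counts in the labeled libraries, against 2 and 0 in the total libraries, which is too few to place it. Box C/D snoRNAs guide the methylation of ribose, and 19 of the 39 tested were lower and 0 higher, with a median of -0.88 (-0.94 less the median of all features). Among those with a mean of at least 20 CPM the families lay closer. All 25 such H/ACA snoRNAs were lower, with a median of -4.78, and all 10 such C/D snoRNAs, with a median of -4.06. The mean was over the 4 compared libraries, so a snoRNA low in labeled RNA can pass through its total RNA alone. This choice of members favors low ratios, and the closer medians thus do not compare the families. Across the 66 snoRNAs the ratio fell as the count level in total RNA without 4sU rose, with a correlation of -0.911 (Pearson) and -0.89 (Spearman) given as a description. That level came from cells without 4sU, which may share cultures with the compared libraries, and counts were not divided by length.

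The lowest ratio among the snoRNAs was that of snR17a, the U3 RNA of the C/D family that is needed for the cleavage of the rRNA precursor. It had 790 and 987 CPM in labeled RNA, against 59829 and 33919 CPM in total RNA, a log2 ratio of -5.72 (standard error 0.48, adjusted p = 1.71e-05). The H/ACA RNA snR30, which acts in the same cleavage and guides no known modification, had 305 and 435 CPM in labeled RNA, against 19757 and 14454 CPM in total RNA, a log2 ratio of -5.53 (standard error 0.38, adjusted p = 9.23e-06). The fractions stood at least an order of magnitude apart for both, with no overlap. The modification guides snR46 and snR86 of the H/ACA family and snR63 of the C/D family had log2 ratios of -5.71, -5.57 and -5.36. The highest ratio among the snoRNAs with a mean of at least 20 CPM was that of the C/D RNA snR67, which had 28.4 and 42.1 CPM in labeled RNA, against 60.1 and 55.7 CPM in total RNA, a log2 ratio of -0.73 (standard error 0.22, adjusted p = 0.0153). Its call was lost without replicate 1 of labeled RNA (adjusted p = 0.115) or of total RNA (0.0786), and with library sizes from nuclear reading frames (log2 ratio -0.39, adjusted p = 0.14). The 15 tested snoRNAs cut from precursors that they share with other snoRNAs had a median of -0.73, with 6 lower and 9 not called. The 8 snoRNAs that lie within introns of other genes did not pass the filter.

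The spliceosomal and other stable particles showed the same direction. LSR1, the U2 RNA of the spliceosome, had 2212 and 2794 CPM in labeled RNA, against 69556 and 49453 CPM in total RNA, a log2 ratio of -4.57 (standard error 0.38, adjusted p = 1.71e-05). The U1 RNA snR19 had 262 and 315 CPM in labeled RNA, against 11342 and 8074 CPM in total RNA, a log2 ratio of -5.07 (standard error 0.28, adjusted p = 5.34e-06). The U4 RNA snR14 lay closer, with 33.2 and 58.5 CPM in labeled RNA, against 142 and 123 CPM in total RNA, a log2 ratio of -1.54 (standard error 0.36, adjusted p = 0.00451). All 3 had every labeled library below every total library, as had 2255 of all 6069 features. The other 2 snRNAs tested, snR6 and snR7-L, had at most 13 counts in any of the 4 libraries and were not called.

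SCR1, the RNA of the signal recognition particle, had 2961 and 3690 CPM in labeled RNA, against 117042 and 72148 CPM in total RNA, a log2 ratio of -4.83 (standard error 0.54, adjusted p = 6.52e-05). RPR1, the RNA of RNase P, had 680 and 896 CPM in labeled RNA, against 18059 and 12471 CPM in total RNA, a log2 ratio of -4.28 (standard error 0.36, adjusted p = 1.72e-05). NME1, the RNA of RNase MRP, had 61.5 and 95 CPM in labeled RNA, against 3012 and 2521 CPM in total RNA, a log2 ratio of -5.15 (standard error 0.29, adjusted p = 5.34e-06). These 3 RNAs and RUF20 were the 4 lower ones among the 12 other noncoding RNAs tested. RUF20 had a log2 ratio of -1.14 (adjusted p = 0.0102), which was no longer called without replicate 1 of labeled RNA (adjusted p = 0.0757) or of total RNA (0.0533).

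**Figure D3:**
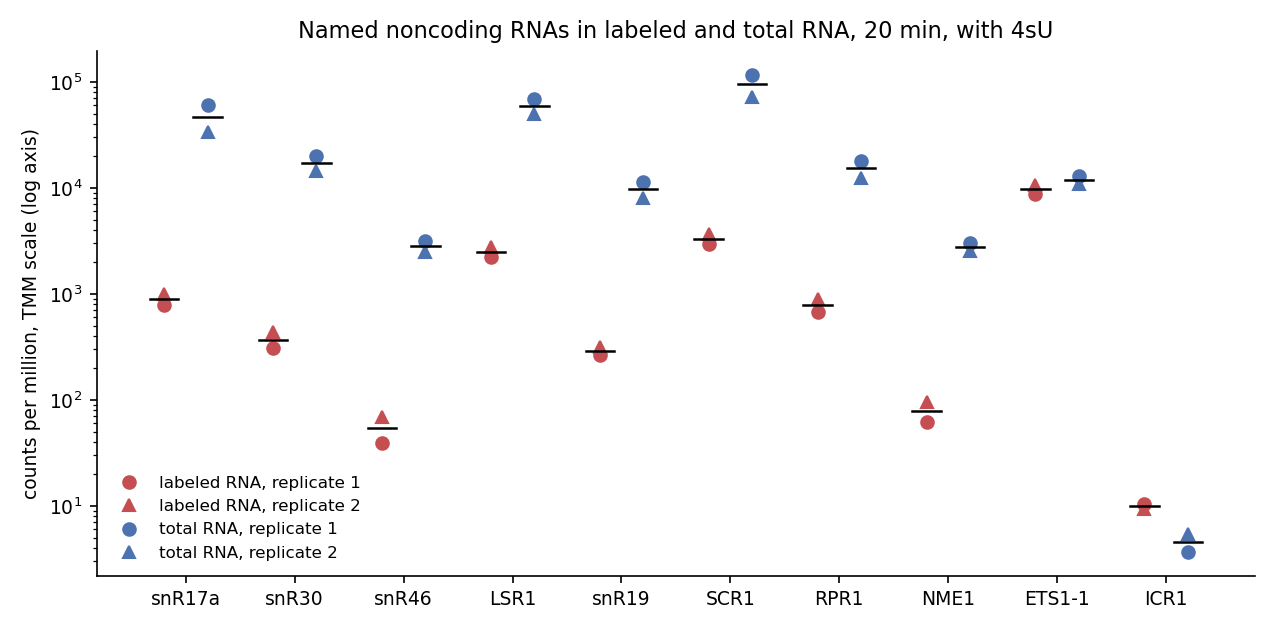
CPM on the TMM scale (log axis) of 10 named noncoding RNAs, with labeled RNA left of total RNA, a point for each replicate and a bar at the mean of 2. The stable RNAs from snR17a to NME1 lie far lower in labeled RNA, while ETS1-1 (8789 and 10522 CPM in labeled RNA, 12913 and 10883 CPM in total RNA) and ICR1 do not.

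Higher in labeled RNA were 2 of the other noncoding RNAs. ICR1, a long transcript that runs across the promoter of the flocculin gene FLO11, had 10.4 and 9.41 CPM in labeled RNA, against 3.68 and 5.39 CPM in total RNA. Its log2 ratio was 1.15 (standard error 0.30, adjusted p = 0.00879), and without replicate 1 of total RNA it was 0.88 and not called (adjusted p = 0.0782). RME2, an antisense transcript of the IME4 gene of meiosis, had 51 and 12 counts in the labeled libraries, against 0 in both total libraries. With 3 counts over both total libraries as a floor, it was at least 1.57-fold higher in labeled RNA. Its call (adjusted p = 0.0303) was lost without any of the 4 libraries (adjusted p from 0.0546 to 0.11) and with DESeq2 (0.0553). The remaining 6 noncoding RNAs, SRG1 of the SER3 promoter and IRT1 of the IME1 promoter among them, were not called, with log2 ratios from -0.98 to -0.46.

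Among the rRNA features, only both copies of the external spacer ETS1, which is cut off and degraded as the precursor is processed, did not pass the test. ETS1-1 had 8789 and 10522 CPM in labeled RNA, against 12913 and 10883 CPM in total RNA, a log2 ratio of -0.30 (standard error 0.22, adjusted p = 0.269). ETS1-2 had a log2 ratio of -0.32 (standard error 0.23, adjusted p = 0.26). The direction depended on the scale. DESeq2 called ETS1-1 lower, at -0.37 (adjusted p = 0.0357), while library sizes from all features called both copies higher, at 1.25 for ETS1-1 (adjusted p = 0.000133) and 1.23 for ETS1-2 (0.000326). The other 9 tested rRNA features were lower in labeled RNA, relative to the other features and not as a share of all counts. Both copies of the other external spacer, ETS2, were among them. ETS2-1 had a log2 ratio of -1.64 (adjusted p = 0.00233) and ETS2-2 one of -1.51 (0.00462), on at most 276 counts in a library. The external spacers thus did not share 1 result. RDN37-2, a unit that spans the whole precursor, had 1236 and 867 CPM in labeled RNA, against 5765 and 5274 CPM in total RNA, a log2 ratio of -2.39 (standard error 0.36, adjusted p = 0.000375). RDN37-1, its copy, had a log2 ratio of -1.79 (adjusted p = 0.0377). Its total libraries differed, at 5457 and 1984 CPM, and without replicate 1 of total RNA the ratio was -0.89 (adjusted p = 0.339). It also lost its call without either labeled library (adjusted p = 0.0967 without replicate 1 and 0.149 without replicate 2), with library sizes from nuclear reading frames (-1.44, 0.0737) or from all features (-0.22, 0.737), with DESeq2 (0.0514) and with all 12 libraries with 4sU (0.074). The copies share reads, since reads with several positions were counted, and how these reads were split is not settled here. The 5 RDN5 copies had log2 ratios from -4.69 to -1.62, on at most 116 counts in a library. Another 10 rRNA features were listed at 0 in every library, and rRNA had been depleted before sequencing, so the values describe what depletion left.

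Transfer RNAs had few counts. They held 0.00931% and 0.0167% of the counts in labeled RNA, against 0.0104% and 0.0102% in total RNA, and 72 of 299 tRNA genes passed the filter. Of these 13 (18.1%) were lower in labeled RNA, next to 27.0% over all features, and 0 were higher. The median log2 ratio was -1.40 (-1.47 less the median of all features), and 8 of the 72 had no count in either total library. The most covered of them, tP(UGG)Q of the mitochondrial genome, had 6.31 and 11.7 CPM in labeled RNA, against 23.0 and 24.4 CPM in total RNA, a log2 ratio of -1.45 (standard error 0.37, adjusted p = 0.0069). Nuclear tRNA genes (9 of 50 lower) and mitochondrial ones (4 of 22 lower) had medians of -1.44 and -1.36. The tRNA medians rest on few counts and were not compared by a test. Less the median of all features, that of nuclear tRNA genes was -1.51, and -0.85 without replicate 1 of total RNA, and that of mitochondrial ones was -1.43, and -0.74 without replicate 1 of labeled RNA.

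Transcripts of the mitochondrial genome, other than its tRNAs, had a median log2 ratio of -2.94 (-3.00 less the median of all features). Of the 20 tested, out of 31 in the table, 13 were lower in labeled RNA and 0 higher. The feature with the most counts in total RNA, Q0158, had 12005 and 17347 CPM in labeled RNA, against 519114 and 531035 CPM in total RNA, a log2 ratio of -5.16 (standard error 0.58, adjusted p = 6.6e-05). It alone held 2.05% and 2.82% of the counts in labeled RNA, against 28.7% and 30.9% in total RNA. Q0020 held a further 0.778% and 0.959% in labeled RNA, against 7.96% and 10% in total RNA. The mitochondrial share of the counts thus mostly describes Q0158 and Q0020. The share of Q0158 and the shares of the other RNAs are tied, since the shares of a library sum to a whole, and the TMM scale serves to set that aside. A separate fit of nuclear reading frames alone gave 1806 higher and 1621 lower.

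Among the nuclear reading frames the deposited tables give identifiers without gene names. The 12 with the highest ratios, of those called with a mean of at least 20 CPM, had log2 ratios from 2.74 to 4.65, and the 12 with the lowest from -3.75 to -2.81. The highest, YER190W, had 112 and 139 CPM in labeled RNA, against 3.37 and 6.83 CPM in total RNA, a log2 ratio of 4.65 (standard error 1.34, adjusted p = 0.0136). Only 11 and 19 counts stood behind the total libraries, and the call was lost without replicate 1 (adjusted p = 0.103) or replicate 2 (0.0666) of total RNA. At 60 min the labeled libraries of YER190W differed widely, at 2.58 and 97.8 CPM. Its total libraries without 4sU also differed, at 196 and 24 counts. Reads with several positions were counted, and whether YER190W shares reads with other features was not checked. YDL131W, picked from the 12 after its values were seen because it kept its call in every alternative, had 55.7 and 62.2 CPM in labeled RNA, against 7.67 and 5.75 CPM in total RNA, a log2 ratio of 3.12 (standard error 0.22, adjusted p = 9.98e-06). Those alternatives held no library without 4sU. Without 4sU, YDL131W had 17 and 190 counts in labeled RNA, against 18 and 16 in total RNA. These libraries held 4.75 M and 1.63 M counts in labeled RNA, against 4.38 M and 4.96 M in total RNA. In replicate 2 of the background YDL131W was thus also higher in labeled RNA, by more than with 4sU once library sizes are counted. In replicate 1 its counts were few and about equal. How much of its ratio came from the pull-down was not tested. The lowest, YFL014W, had 39.1 and 53.0 CPM in labeled RNA, against 640 and 595 CPM in total RNA, a log2 ratio of -3.75 (standard error 0.17, adjusted p = 2.99e-06). For all 3 the labeled and total libraries did not overlap. Of the 5883 reading frames tested, 2131 had every labeled library below every total library. The log2 ratio of YFL014W was above those of LSR1, snR19, NME1 and snR17a.

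The supplement of the study pairs 9 further identifiers with symbols, as examples of residence times. CYS4, the cystathionine beta-synthase of cysteine synthesis, had 514 and 513 CPM in labeled RNA, against 174 and 172 CPM in total RNA, a log2 ratio of 1.57 (standard error 0.13, adjusted p = 1.52e-05). CSR2, an arrestin-related adaptor of ubiquitin ligation, had 77.5 and 74.7 CPM in labeled RNA, against 23.3 and 25.2 CPM in total RNA, a log2 ratio of 1.65 (standard error 0.16, adjusted p = 2.82e-05). With 4sU, replicates of these genes lay close together and the fractions far apart. Without 4sU, CYS4 had 205 and 562 counts in labeled RNA, against 223 and 262 in total RNA. For CSR2 these were 69 and 389, against 82 and 100. In replicate 2 without 4sU both genes thus had more counts in labeled RNA, from a library of 1.63 M counts against 4.96 M in total RNA. In replicate 1 both had fewer counts in labeled RNA. Reading frames held 25.5% of 4.75 M counts there, against 34.7% of 4.38 M in total RNA. Per count of reading frames, both genes were thus slightly higher in labeled RNA in replicate 1 too. In replicate 2 that scale widens the gap, for CYS4 to about that with 4sU and for CSR2 beyond it. On the low side, LOC1, a nuclear protein of mRNA localization and ribosome assembly, had 101 and 108 CPM in labeled RNA, against 249 and 220 CPM in total RNA, a log2 ratio of -1.16 (standard error 0.15, adjusted p = 0.000129). NVJ1, a protein of the contact between nucleus and vacuole, had a log2 ratio of -1.02 (adjusted p = 0.000292), and MEC3, a subunit of the DNA damage checkpoint clamp, one of -0.76 (adjusted p = 0.00174). RPS24A, a protein of the small ribosomal subunit, had 187 and 271 CPM in labeled RNA, against 268 and 229 CPM in total RNA, with overlapping fractions and a log2 ratio of -0.12 (standard error 0.19, adjusted p = 0.613). With library sizes from all features RPS24A was called higher, at 1.43 (adjusted p = 1.51e-05).

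The other 3 had few counts or unstable calls. SUT2 had a log2 ratio of 1.36 (adjusted p = 0.0359) on 7 and 12 counts in the total libraries. Its call was lost without replicate 1 (adjusted p = 0.0518) or 2 (0.119) of labeled RNA and without replicate 1 of total RNA (0.249), and with all 12 libraries with 4sU (0.0704). ULA1, which helps to activate the ubiquitin-like protein Rub1, had a log2 ratio of -0.64 (adjusted p = 0.0348), and its call was lost without any of the 4 libraries (adjusted p from 0.0519 to 0.173) and with library sizes from nuclear reading frames (-0.30, 0.282). TOS3, a kinase that acts on Snf1, had a log2 ratio of 0.90 (adjusted p = 0.0579) and passed only without replicate 1 of total RNA (adjusted p = 0.015) or with the other library sizes.

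The ratio went with how many counts a gene had. Nuclear reading frames were split into quartiles by their counts in total RNA without 4sU. These 2 libraries lay outside the comparison but may share cultures with it. In quartile 1, the lowest (1471 reading frames), the median log2 ratio was 0.95, and 42.1% were higher and 2.79% lower in labeled RNA. It was 0.49 in quartile 2 and -0.12 in quartile 3. In quartile 4 (1471 reading frames) the median was -0.59, and 10.9% were higher and 60.8% lower. Over the 3925 reading frames with a mean of at least 20 CPM, Pearson's r between the log2 ratio and the log2 level was -0.592, as a description. The level was counted per gene and not per length, so that long genes stand higher in it, and the part that length plays was not tested.

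**Figure D4:**
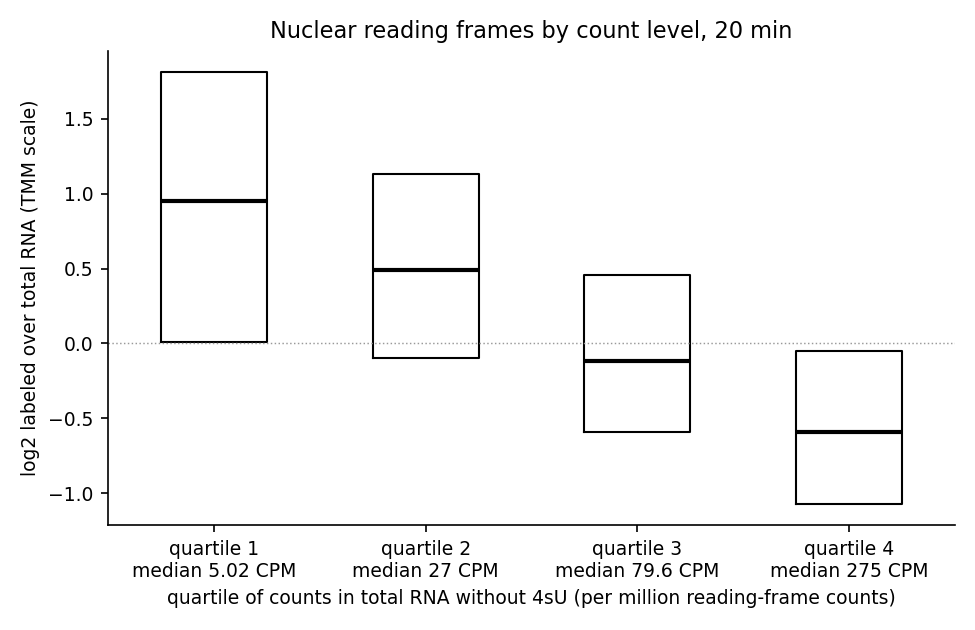
Log2 ratio of labeled over total RNA (TMM scale) of nuclear reading frames in quartiles of their counts in total RNA without 4sU, with boxes from the 25% to the 75% quantile, a line at the median and no whiskers. The medians step down from 0.95 in quartile 1 through 0.49 and -0.12 to -0.59 in quartile 4.

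Groups of reading frames differed less than classes of RNA. The 322 reading frames whose identifiers end in a letter suffix, added to the annotation after the systematic names were first given, had a median log2 ratio of -0.40, with 34 higher and 95 lower. The 5561 without a suffix had a median of 0.12, with 1818 higher and 1455 lower. Over all nuclear reading frames 31.5% were higher and 26.3% lower. The share that was lower was similar with and without a suffix, and the share that was higher was smaller with a suffix. Medians of the 16 chromosomes ran from 0.01 to 0.21. The 10 clusters into which genes were grouped by residence times of transcription factors had medians from -0.14 in cluster 4 (64 of 232 higher, 82 lower) to 0.30 in cluster 9 (17 of 39 higher, 13 lower). Cluster 1, described as holding ribosomal protein genes and genes of translation, had a median of -0.01, with 31 of 94 higher (33.0%) and 36 lower (38.3%). Over the 10 clusters, from 26.9% to 43.6% of the members were higher and from 28.9% to 38.3% lower, next to 30.5% and 27.0% over all features.

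At 60 min in galactose 4 classes kept their order, with medians of -2.26 for mitochondrial transcripts, -3.70 for H/ACA snoRNAs, -0.69 for C/D snoRNAs and 0.01 for nuclear reading frames. Across the 3983 features with a mean of at least 20 CPM, Pearson's r between the ratios at 20 and at 60 min was 0.947, as a description. The ratio at 20 min differed from that at 60 min for 3 features (0.0494% of those tested), all reading frames and all lower at 20 min. DESeq2 gave 44, of which 4 were higher and 40 lower at 20 min, and 621 had an unadjusted p under 0.05 with edgeR. YFL014W had the largest difference. Its log2 ratio was -3.75 at 20 min, against -0.93 at 60 min, where it had 92.8 and 96.5 CPM in labeled RNA and 168 and 194 CPM in total RNA. The difference was -2.82 (standard error 0.23, adjusted p = 0.00136), and at 20 min labeled RNA was lower and total RNA higher than at 60 min. YML128C had 25.3 and 36.3 CPM in labeled RNA and 239 and 208 CPM in total RNA at 20 min, a log2 ratio of -2.87. At 60 min it had 64.1 and 51.3 CPM in labeled RNA and 96.2 and 86.7 CPM in total RNA, a log2 ratio of -0.67. The difference was -2.20 (standard error 0.27, adjusted p = 0.0247). That of the third reading frame was -1.64 (standard error 0.20, adjusted p = 0.0247). Both of these calls were lost without replicate 1 of labeled RNA at 20 min, or without any of the total libraries at 20 or 60 min (adjusted p from 0.0795 to 0.148), while YFL014W was called without each of the 8 libraries.

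**Figure D5:**
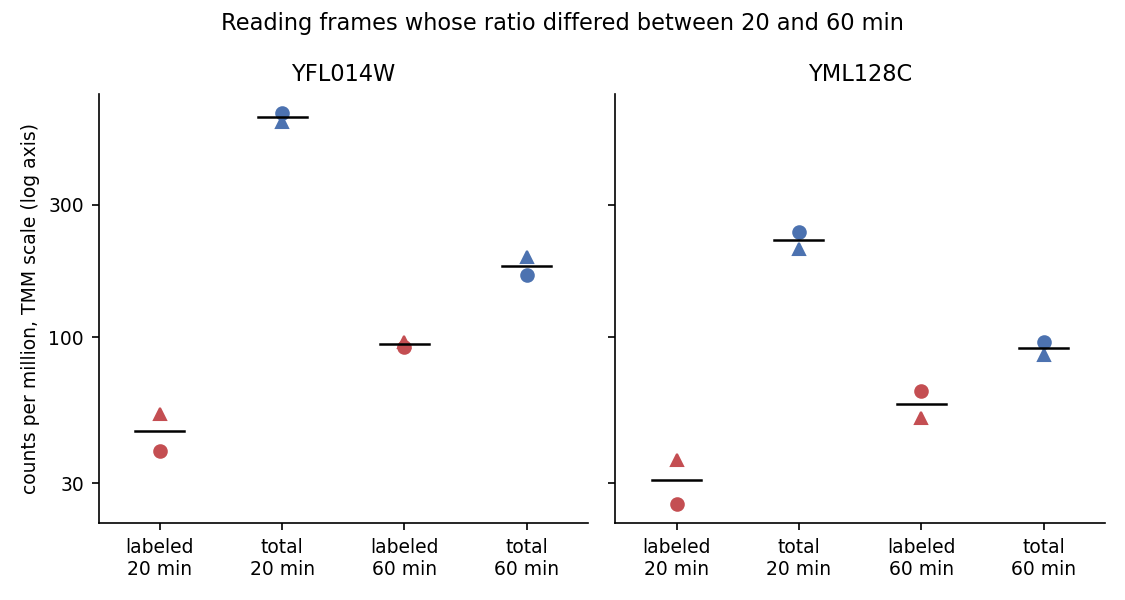
CPM on the TMM scale (log axis) of YFL014W and YML128C in labeled and total RNA at 20 and 60 min, with a circle for replicate 1, a triangle for replicate 2 and a bar at the mean. In both, total RNA at 20 min lies above total RNA at 60 min, and labeled RNA at 20 min lies below labeled RNA at 60 min.

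Cells without 4sU gave the background of the pull-down. On the deposited S. pombe scale, nuclear reading frames in the labeled fraction had 17.0 times as much signal with 4sU as without in replicate 1, and 64.2 times as much in replicate 2. For mitochondrial transcripts the ratio was 0.285 in replicate 1 and 9.3 in replicate 2, and for snoRNAs it was 0.329 and 10.2. The labeled library without 4sU of replicate 1 stood apart, with a scaled total of 3.26 M, against 0.269 M in replicate 2, and with 53.2% of its counts from mitochondrial transcripts, against 21.7% in replicate 2. In replicate 1 mitochondrial transcripts and snoRNAs thus gave less signal with 4sU than without, while in replicate 2 they gave more. How much of the mitochondrial and snoRNA signal in labeled RNA with 4sU was bound without a label was not tested.

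The ratios were also set beside those of the background. Across the 3925 reading frames, Pearson's r between the log2 ratio with 4sU and the log2 ratio of the same fractions without 4sU was 0.206 in replicate 1 and 0.81 in replicate 2, as a description of libraries that may share cultures but share no reads. In a test of the ratio with against without 4sU, edgeR called 0 of 6069 features (0%), with 311 at an unadjusted p under 0.05, and DESeq2 called 3 higher and 81 lower. Without replicate 1 of labeled RNA without 4sU edgeR called 49 higher and 218 lower, and without replicate 2 of that group 792 higher and 804 lower. Whether the order of the reading frames in labeled RNA came from the pulse or also from the pull-down cannot be told apart feature by feature in these libraries. The amounts differ by the ratios of 17.0 and 64.2 above. The unlabeled fraction with 4sU, set against total RNA without 4sU, had an r of 0.00844 with the ratio across the same reading frames.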

How the data were processed

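Per the labels and the methods of the study, the authors aligned paired-end reads to the S. cerevisiae genome (R64) with HISAT2 2.0.4 and counted them per gene, by strand and with multi-mapping reads included, with featureCounts. They deposited these raw counts, and a signal table of the counts divided by the S. pombe reads of each library over 2000000. Here counts were tested in R 4.3.3 with edgeR 4.0.16 (TMM, quasi-likelihood test, Benjamini-Hochberg adjustment, threshold 0.05) over the 8 libraries of labeled and total RNA with 4sU at 20 and 60 min. The test with against without 4sU used the 8 libraries of those fractions at 20 min. The code was tested on simulated counts. Per-replicate log2 ratios used a pseudocount of 1 CPM. The signal served only for the amounts with against without 4sU. Python 3.11.15 and pandas 2.3.3 gave the summaries.

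The members and lists were chosen with earlier results of these data known, and the snoRNA families and gene clusters were added after the files were read. Features to be named were, among those called with a mean of at least 20 CPM and the same direction in both replicates, the 12 highest and 12 lowest reading frames, the 5 highest and 5 lowest other features, the 2 highest and 2 lowest of each list and up to 5 in each direction of the difference between times. Other noncoding RNAs, those at the floor and those with symbols in the supplement of the study were named besides. At most 2 identifiers in each direction of a comparison are printed. Lists by gene symbol (514 symbols, galactose and transcription factor genes among them) were not analysed here, as 0 matched.

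The labels describe cultures that were split, and a replicate number was read as marking 1 culture, which the labels do not state. The differences between replicates had a correlation of 0.226 between the fractions. Replicates differed by more than sampling noise (chi-square per gene of 61.2 in labeled and 27.8 in total RNA). Alternatives were other library sizes, DESeq2 1.42.0, other filters, other sets of libraries, the replicate block, each library left out and, added after seeing the data, reading frames alone. In the main comparison the total libraries had fewer counts than the labeled ones, so that low features rest on few counts there.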

Additional observations from a re-analysis of the deposited data

Results flagged for a closer look

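The ratio of labeled over total RNA differed between 20 and 60 min, by the test of the difference itself, for 3 reading frames. The log2 difference of 20 less 60 min was -2.82 for YFL014W, -2.20 for YML128C and -1.64 for the third. All 3 had a ratio below that of the median feature at both times, and their log2 ratios at 60 min were -0.93, -0.67 and -0.20. With 2 samples in each group no test for a single deviating sample was made.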

How the results depend on the processing

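With library sizes from all features 5074 features were higher and 151 lower, and with library sizes from nuclear reading frames 1008 were lower. The first scale turned the sign of snR14 (0.01), RUF20 (0.41), tP(UGG)Q (0.11), snR67 (0.83), MEC3 (0.80), ULA1 (0.92), NVJ1 (0.54) and LOC1 (0.39). It also put ETS1-1 (1.25), ETS1-2 (1.23) and RPS24A (1.43) above 0, where they were called higher. It shifts the median ratio by 1.56. Leaving out a library, where the lone sample left is assumed to vary like the other groups, gave from 1455 to 1664 higher and from 1250 to 1478 lower features. The replicate block, which treats fractions of the same replicate number as paired, gave 1973 higher and 1727 lower, 4 features between the times and 0 with against without 4sU, and changed no call of the single features for which it was computed. For the difference between times DESeq2 gave 44, and leaving out a library from 1 (labeled RNA at 20 min, replicate 1, or total RNA at 20 min, replicate 2) to 13 (labeled RNA at 60 min, replicate 2), with 5 without replicate 1 of labeled RNA at 60 min. With against without 4sU, DESeq2 gave 84, and leaving out a library from 0 to 1596. That comparison thus rests on the labeled libraries without 4sU, with 267 calls without replicate 1 and 1596 without replicate 2. The causes were not tested. Less the median of all features, the median of H/ACA snoRNAs lay between -5.27 and -4.25 and that of mitochondrial transcripts between -3.67 and -2.53 over the alternatives. Low counts in total RNA limit the ratios of rare features, 77 of which had no count in either total library.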
